A study of Cunninghamia lanceolata with 3 samples.

Results

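The 10 unigenes (assembled transcript sequences) described here carry the names of enzymes that cut or add xylose, arabinose, mannose or galactose on plant glycans. They were chosen by a text match followed by the read total. A case-insensitive search of the best-hit text for xylosidase, arabinofuranosidase, xylanase, xylosyltransferase, glucuronoxylan, mannan synthase, mannanase, mannosidase and beta-galactosidase found 26 of 53590 unigenes, and the 10 with most uniquely mapped reads, summed over the 3 libraries, were kept. These 10 held 12872 of the 14652 reads on all 26. The lowest unigene inside the limit had 576 reads (Unigene17199) and the first one outside it had 426 (Unigene53684). The read total is therefore no finding, and it is given only as a description.

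The material was cambium of the conifer Cunninghamia lanceolata (Chinese fir), the layer of dividing cells between wood and bark, cut as tangential cryosections from trees of about 16 years that grew under natural conditions. Polyadenylated RNA was sequenced in 3 libraries, 1 for each stage (dormant, reactivating, active), with 5.85 M, 5.85 M and 5.84 M uniquely mapped reads (M for mega). No treatment or genotype separates the groups, the number of trees behind a library is not stated in the labels, and no difference below has a replicate check. Gene names come from the best hit in another species and are not a tested function.

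Wood cell walls hold cellulose fibres in a matrix of hemicelluloses and pectins. In conifers the main hemicelluloses of wood are a mannose-rich glucomannan and a xylan with arabinose and glucuronic acid side chains, while the thin walls of growing cells hold xyloglucan. Glycosidases trim these chains after they are laid down. Other enzymes with the same sugar names act inside the cell, where mannosidases and a xylosyltransferase shape the N-glycans, the sugar trees on secreted proteins.

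The descriptions went against a reading of these 10 unigenes as a set for xylan and mannan. Of the 10, 6 were named for enzymes of N-glycans or for an alpha-mannosidase, and 4 for glycosidases that remove side-chain sugars. Within the latter, only 2 carried a name that includes xylan as a known substrate, alpha-L-arabinofuranosidase/beta-D-xylosidase. The cut by read total, which is not corrected for length, set this mix, and the 26 matching unigenes had another. By name, 6 of the 26 were arabinofuranosidase/xylosidases, 6 alpha-xylosidases, 4 beta-galactosidases, 1 a xylanase and 1 a beta-mannosidase. The remaining ones were 3 N-glycan alpha-mannosidases, 2 N-glycan xylosyltransferases, 1 glycoprotein endo-beta-mannosidase and 2 alpha-mannosidases. The terms mannan synthase, mannanase and glucuronoxylan matched 0 unigenes, and xylanase matched 1, which had too few reads to be among the 10. In the deposited tables, 8 of the 10 had a gene ontology term for a cell component. The term for an intracellular membrane-bounded organelle was attached to 6, among them 5 of the 6 N-glycan or mannosidase unigenes and the beta-galactosidase. The terms extracellular region and polysaccharide catabolic process were attached to 1 of the 10, the arabinofuranosidase/xylosidase Unigene45625. The lengths ran from 266 to 2047 bases.

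The level of each unigene is given as RPKM, the reads divided by unigene length (in kilobases) and by library total (in M), and the range in parentheses after a level or ratio is a 95% exact interval that covers counting error only. The side-chain glycosidases held the large differences between stages. One arabinofuranosidase/xylosidase was high in dormancy and nearly absent in the reactivating library, another one with the same best hit was low in dormancy and high in both later stages, and the alpha-xylosidase was lowest in dormancy. The 6 N-glycan and mannosidase unigenes and the beta-galactosidase stayed within 2-fold in all 3 comparisons.

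**Figure D1:**
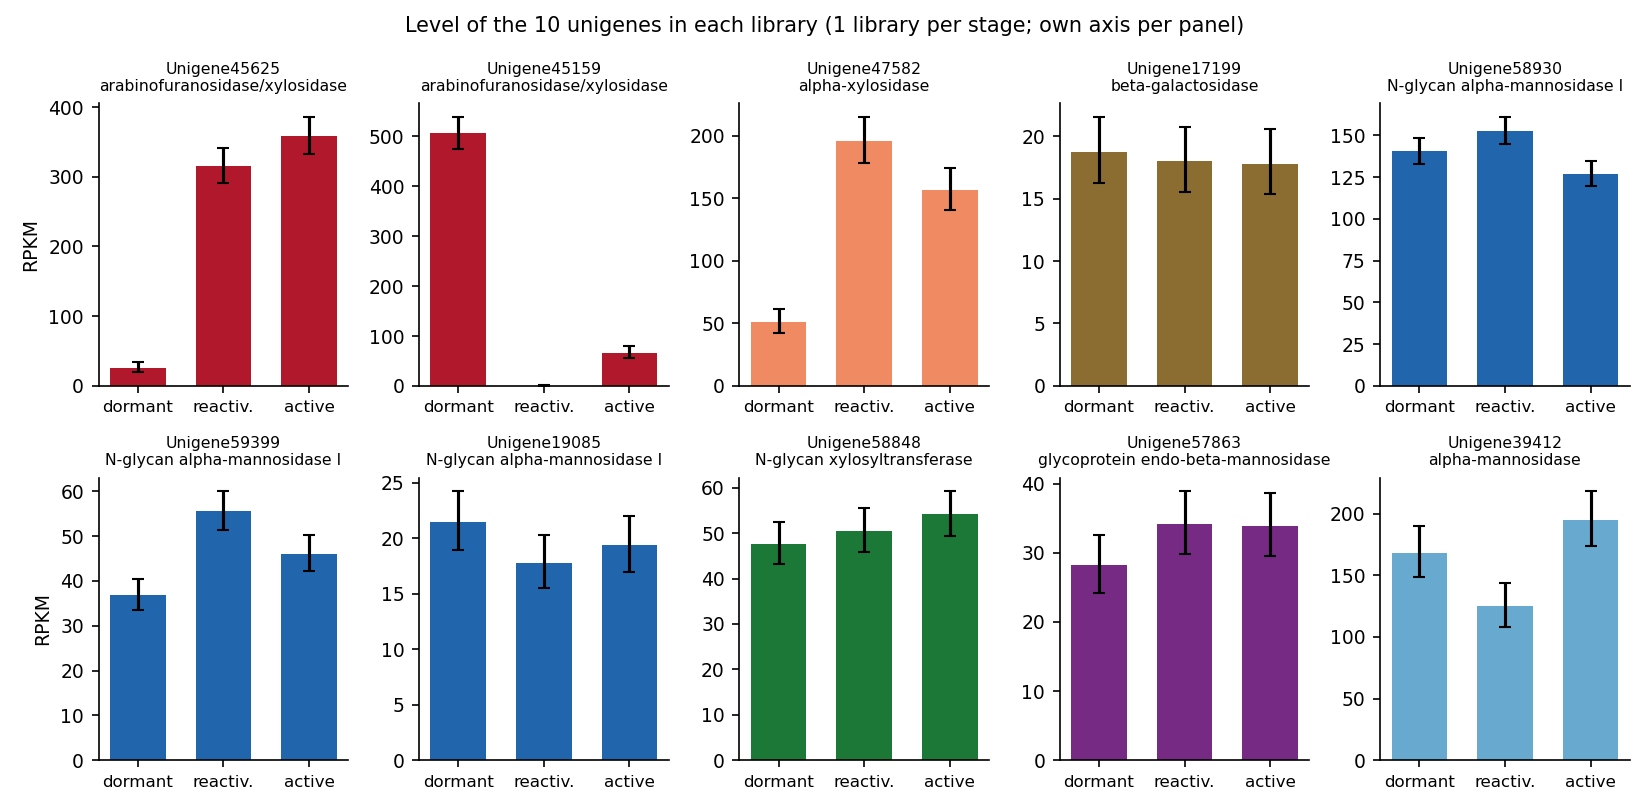
RPKM (y axis, from 0, its own scale in each panel) of the 10 unigenes in the dormant, reactivating and active library (x axis), coloured by the name of the best hit; bars are 1 library each and error bars are 95% exact counting intervals. Unigene45159 stands at 507 in dormancy and near 0 at reactivation, Unigene45625 and Unigene47582 are lowest in dormancy, and the other 7 differ little.

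Unigene45159 and Unigene45625 share 1 best hit, an alpha-L-arabinofuranosidase/beta-D-xylosidase of Pseudotsuga menziesii. Enzymes of this family release arabinose and xylose from the side chains or ends of arabinoxylan and, in some cases, of pectic arabinan. Both unigenes are short, with 336 and 344 bases, and the hits had E-values of 5.53e-16 and 2.01e-18. The files give no sequence, so it is not known whether they cover the same or different stretches of the protein.

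Unigene45159 had 996 reads at dormancy, 1 at reactivation and 131 in activity, which equals RPKM of 507 (476 to 539), 0.509 (0.0129 to 2.84) and 66.7 (55.8 to 79.2). It was thus the most abundant of the 10 per length in dormancy and the least abundant at reactivation. The reads covered 99.7% of its length in the dormant library, 14.58% in the reactivating library and 97.32% in the active library. The level was lower in the reactivating than in the dormant library by a factor of 996 (178 to 39390), a value that rests on 1 read. From reactivation to activity it was higher by a factor of 131 (23.1 to 5219). The active library did not return to the dormant level, being 7.60-fold lower (6.33 to 9.19). Dormant reads, 996 of 1128, brought Unigene45159 among the 10. Its reactivating and active libraries together held 132 reads, against 295 for Unigene53684, the first unigene outside. The high dormant level is thus tied to the choice by reads and is only a description.

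Unigene45625 had 52, 634 and 721 reads in the same order of stages, or RPKM of 25.8 (19.3 to 33.9), 315 (291 to 341) and 359 (333 to 386). Dormancy stood apart as the low library, and the reactivating and active levels were close. The reactivating level was 12.2-fold above dormancy (9.18 to 16.5) and the active level 13.9-fold (10.5 to 18.8). Between the 2 growing stages the ratio was 1.14 (1.02 to 1.27), with an interval just clear of 1.

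The 2 unigenes thus changed places between stages. Of the summed reads of both, Unigene45159 held 95.04% (93.54 to 96.27) at dormancy, 0.158% (0.00399 to 0.874) at reactivation and 15.38% (13.02 to 17.98) in activity, with exact Clopper-Pearson intervals. Another 2 unigenes with this best hit fell outside the 10. Unigene53684 had 131, 111 and 184 reads and Unigene23625 had 35, 22 and 60, and neither shared the deep drop of Unigene45159. A further arabinofuranosidase/xylosidase, Unigene23977, whose best hit is an enzyme of alfalfa, had 16, 130 and 145 reads. It was 8.12-fold higher (4.82 to 14.6) in the reactivating than in the dormant library, so that its order of stages was that of Unigene45625. The reads of all 4 unigenes with the Pseudotsuga hit summed to 1214, 768 and 1096, a far smaller spread than that of either member.

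**Figure D2:**
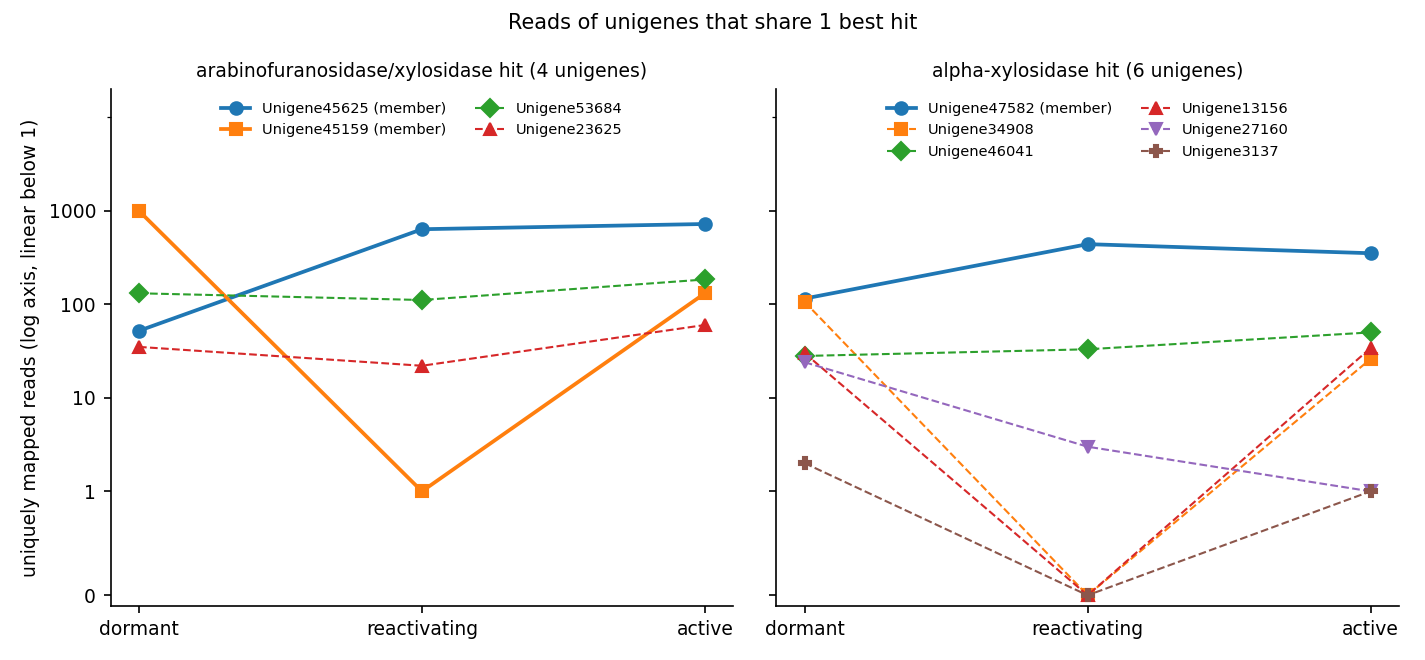
Uniquely mapped reads (y axis, logarithmic above 1 and linear below) by stage (x axis) for the 4 unigenes with the arabinofuranosidase/xylosidase hit and the 6 with the alpha-xylosidase hit; solid lines are unigenes among the 10, dashed lines the others, and each point is 1 library. Unigene45159 drops to 1 read at reactivation while Unigene45625 is at 634, and 3 alpha-xylosidase unigenes are at 0 there while Unigene47582 is at 439.

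Unigene47582 was named putative alpha-xylosidase after a protein of Pinus pinaster. In Arabidopsis, alpha-xylosidase removes xylose from the fragments of xyloglucan, so the name points to xyloglucan and not to xylan. The unigene is 383 bases long, with an E-value of 1.86e-08, the weakest hit among the 10. It had 115, 439 and 351 reads, or RPKM of 51.3 (42.4 to 61.6), 196 (178 to 215) and 157 (141 to 174). Dormancy was again the low library. The reactivating level was 3.82-fold (3.10 to 4.73) and the active level 3.06-fold (2.47 to 3.81) that of dormancy. The active level was 1.25-fold lower (1.08 to 1.44) than at reactivation.

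The alpha-xylosidase hit was shared by 5 further unigenes outside the 10, and these did not move as one. Unigene34908 had 106, 0 and 26 reads. With the library at 0 set to a floor of 3 reads, its reactivating level was 35.3-fold lower than in dormancy. Its active level was 8.68-fold higher than at reactivation under the same floor. Both folds depend on that floor and carry no counting interval. Unigene13156 had 30, 0 and 34 reads, so the pattern of a gap at reactivation appeared in both hit families. Unigene46041, with 28, 33 and 50 reads, had no such gap. Unigene27160 had 24, 3 and 1 reads and was lower than in dormancy by a factor of 8.002 (2.43 to 41.5) at reactivation and 24.0 (3.91 to 986) in activity, without a return. Unigene3137 had 2, 0 and 1 reads, too few for a ratio. In the reactivating library Unigene47582 held 92.4% of the reads of the 6 unigenes, against 37.7% in dormancy and 75.8% in activity.

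Unigene17199, named beta-galactosidase 17 after Arabidopsis, belongs to a family that removes terminal galactose from glycans of the wall and other sources. It had 198, 190 and 188 reads, or RPKM of 18.7 (16.2 to 21.5), 18.0 (15.5 to 20.7) and 17.8 (15.4 to 20.6). The 3 libraries did not differ beyond counting error. Its ratio of the active to the dormant level was 1.05-fold lower, with an interval of the fold from 0.857 to 1.29. Of the 3 other beta-galactosidase unigenes, Unigene35176 was the one with most reads, at 93, 47 and 69. It was 1.98-fold lower (1.38 to 2.87) at reactivation than in dormancy, just inside the 2-fold limit. Unigene14561, named after its values were seen, had 38, 19 and 16 reads and reached that limit. It was 2.0-fold lower (1.13 to 3.67) at reactivation and 2.37-fold lower (1.29 to 4.56) in activity than in dormancy. Unigene12909 had 5, 2 and 2 reads, too few to enter a comparison.

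Among the N-glycan enzymes, 3 unigenes were named mannosyl-oligosaccharide 1,2-alpha-mannosidase, which trims mannose from new N-glycans in the endoplasmic reticulum and Golgi. Unigene58930 had most reads of the 10, with 1272, 1381 and 1146, or RPKM of 141 (133 to 149), 153 (145 to 161) and 127 (120 to 134). Its levels lay close together. Activity was 1.20-fold below reactivation (1.11 to 1.30), while reactivation was 1.09-fold above dormancy (1.005 to 1.172), a ratio of 1.03 under TMM scaling. Unigene59399 shares that best hit, a soybean protein, and had 435, 657 and 544 reads. It was 1.51-fold higher (1.34 to 1.71) at reactivation and 1.25-fold higher (1.10 to 1.42) in activity than in dormancy. Unigene19085, with another best hit from castor bean, had 257, 213 and 232 reads and was highest in dormancy, at 1.21-fold above reactivation (1.002 to 1.454). By point value, the order of the stages differed among the 3, and reactivation was the highest library for 2 of them. The intervals of Unigene58930 and Unigene19085 between dormancy and reactivation were barely clear of 1. For Unigene19085, activity and dormancy did not differ beyond counting error (1.11-fold lower, 0.923 to 1.33), so its order of stages is not settled.

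Unigene58848 was named beta-1,2-xylosyltransferase, the Golgi enzyme that adds xylose to the core of plant N-glycans and does not make xylan. It had 417, 442 and 473 reads, or RPKM of 47.7 (43.2 to 52.5), 50.5 (45.9 to 55.5) and 54.2 (49.4 to 59.3), and its 3 ratios could not be told from 1 within counting error. Unigene57863 was named mannosylglycoprotein endo-beta-mannosidase after a lily enzyme that cuts inside the N-glycan core. It had 184, 223 and 221 reads, and its ratios, too, did not differ from 1 beyond counting error, the largest being 1.21 (0.992 to 1.48) for reactivation over dormancy. The E-value of its hit was 7.95e-180.

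Unigene39412 was named alpha-mannosidase after pepper, a class of enzyme that removes mannose from glycoproteins. It is the shortest of the 10, at 266 bases, and had 262, 194 and 303 reads, or RPKM of 168 (149 to 190), 125 (108 to 144) and 195 (174 to 218). Reactivation was its low library. Activity was 1.56-fold above reactivation (1.30 to 1.88), the largest ratio in either direction among the 6 N-glycan and mannosidase unigenes. Activity and dormancy did not differ beyond counting error, at a ratio of 1.16 (0.978 to 1.37). Over these 6 unigenes and 3 comparisons, the interval held 1 in 9 of 18 ratios.

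**Figure D3:**
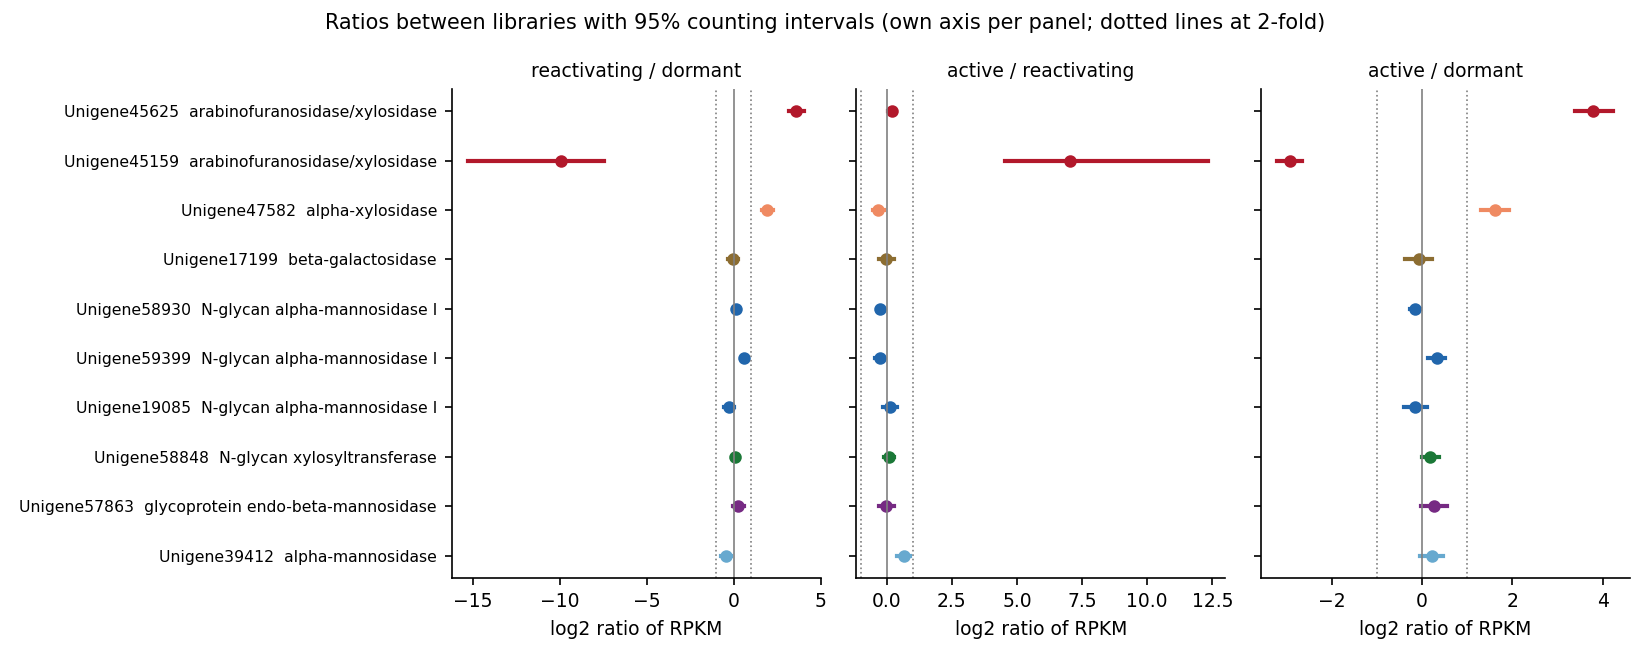
Log2 ratio of RPKM (x axis, its own range in each panel) for the 10 unigenes (y axis) in the 3 comparisons; points are ratios of 1 library to 1 library, lines are 95% counting intervals, and dotted lines mark 2-fold. Unigene45159, Unigene45625 and Unigene47582 lie beyond the dotted lines from dormancy to either later stage, and Unigene45159 alone does so from reactivation to activity.

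All 10 unigenes passed the minimum of 20 reads in both libraries together in each comparison. From dormancy to reactivation, 2 of the 10 were at least 2-fold higher and 1 at least 2-fold lower, where 16.9% of 36274 unigenes were higher and 13.8% lower. From reactivation to activity, 1 was higher and 0 lower, against 6.76% and 5.14% of 36079 unigenes. From dormancy to activity, 2 were higher and 1 lower, against 18.1% and 13.8% of 36288 unigenes. These shares are near the background and are no result about the 10. The median log2 ratio of the 10 was 0.10, 0.04 and 0.20 in the 3 comparisons, beside 0.07, -0.06 and 0.01 over all unigenes tested. The 3 comparisons share libraries, so they are not independent of one another.

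Taking the 3 stages at once, dormancy was at least 2-fold below both other libraries for 2 of the 10, Unigene45625 and Unigene47582, a pattern met by 12.9% of 31946 unigenes with at least 50 reads. Unigene45159 met 2 patterns. Its dormant level was at least 2-fold above both others, as for 8.10% of unigenes. That pattern is tied to the choice by reads, as dormant reads brought this unigene among the 10. Its reactivating level was at least 2-fold below both others, as for 2.73%. Among the 20 matching unigenes with at least 50 reads, 3 had this low point at reactivation, Unigene45159, Unigene34908 and Unigene13156, all with the hit of an arabinofuranosidase/xylosidase or an alpha-xylosidase.

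The summed reads of the 10 were 4188 at dormancy, 4374 at reactivation and 4310 in activity, or 0.0716%, 0.0748% and 0.0738% of each library. The sums were nearly equal while the order of the 10 changed. Per length, Unigene45159 led in dormancy, ahead of Unigene39412 and Unigene58930, whose intervals overlapped. The lead of Unigene45159 is tied to the choice by reads. Unigene45625 led in the reactivating and active libraries. Unigene47582 was second at reactivation, and in activity it came after Unigene39412 with an overlapping interval. Unigene17199 and Unigene19085 had the lowest levels in all but the reactivating library, where Unigene45159 was lower still, and in each library the intervals of these 2 overlapped.

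The 3 unigenes with a ratio past 2-fold were all under 500 bases, as were 4 of the 10 in all, and the part that length plays in this was not tested. Across all unigenes of at least 500 bases, the shares at least 2-fold higher and lower were 15.6% and 12.5% at reactivation against dormancy, 6.05% and 2.90% at activity against reactivation, and 17.3% and 11.7% at activity against dormancy, each below the share over every length. In bulk tissue, fewer cells of a type and less RNA per cell cannot be told apart. Marker lists fixed by name moved with the stages. The summed RPKM of 5 unigenes for dividing cells was 15.2, 687 and 476 over the stages in that order, with 2 of the 5 at 0 in dormancy. For 81 unigenes of differentiating xylem, mostly laccases and cellulose synthases, it was 2879, 1598 and 11760, with 12, 7 and 0 unigenes at 0. This list shares 9 cellulose synthase-like unigenes with the list of other hemicellulose enzymes given later, and without them the sum was 2783, 1494 and 11290. For the 3 phloem unigenes, all sucrose transporters, it was 133, 28.9 and 34.2 with 0 at 0. The list for cambium and meristem had 43, 44 and 42 of 45 unigenes detected, at a summed RPKM of 2110, 2673 and 3230, and 35 of the 45 were named for clavata. For photosynthetic cells the sum over 22 unigenes was 129, 86.9 and 72.2, with 0, 1 and 1 at 0, and for resin ducts and bark over 23 unigenes 120, 234 and 84.9, with 5, 9 and 7 at 0. The part of these cell types in the results was not tested.

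The unigenes with the most similar course over the 3 libraries were sought among 2419 unigenes outside the matching set, all with 200 or more reads and a best hit with a protein name. Likeness was the Euclidean distance between log2(RPKM + 0.5) values, each centred on its own mean over 3 libraries, and with so few points it is a description only. Nearest to Unigene45159 were a subtilisin-like protein (Unigene5729, distance 0.175), a member of a family of proteases, with 595, 0 and 67 reads, and a putative hydrolase of O-glycosyl compounds (Unigene31197, distance 0.236) with 296, 0 and 32. Nearest to Unigene45625 were a putative pectate lyase precursor (Unigene25614, distance 0.0335), of a class that cuts pectin, with 8, 101 and 112 reads, and the ARF-L2 protein of Ginkgo (Unigene12686, distance 0.0355) with 30, 393 and 458. Nearest to Unigene47582 were a putative polygalacturonase precursor (Unigene14845, distance 0.0841), another pectin-cutting class, with 101, 384 and 331 reads, and a putative elongation factor 1A (Unigene13523, distance 0.0858) with 608, 2490 and 1977.

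The other unigenes of the pathway were taken from lists fixed by description. The 16 matching unigenes outside the 10 had 583, 454 and 743 reads in the 3 libraries. At reactivation against dormancy, 1 of 13 with enough reads was higher and 4 were lower, against 16.9% and 13.8% of all unigenes, and the median log2 ratio was -0.24 beside 0.07. At activity against reactivation, 5 of 13 were higher and 0 lower, against 6.76% and 5.14%, with a median of 0.60 beside -0.06. At activity against dormancy, 3 of 14 were higher and 3 lower, against 18.1% and 13.8%, with a median of 0.34 beside 0.01.

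Sugar nucleotides are the building blocks of hemicelluloses, and 7 unigenes were named for the enzymes that make them. From dormancy to reactivation, 1 of the 5 with enough reads was higher and 0 lower, against 16.9% and 13.8% of all unigenes, and the median log2 ratio was 0.14 beside 0.07. From reactivation to activity, 1 of 6 was higher and 0 lower, against 6.76% and 5.14%, with a median of 0.20 beside -0.06. From dormancy to activity, 3 of 6 were higher and 0 lower, against 18.1% and 13.8%, with a median of 0.71 beside 0.01. UDP-glucose pyrophosphorylase (Unigene51755), which makes UDP-glucose, had most reads, at 1059, 1085 and 1063, and did not differ between libraries beyond counting error. UDP-glucose 6-dehydrogenase (Unigene54244), which makes the precursor of UDP-xylose, had 280, 559 and 747 reads and was 2.67-fold higher (2.33 to 3.08) in activity than in dormancy. UDP-D-xylose 4-epimerase (Unigene56322), which turns UDP-xylose into UDP-arabinose, was chosen after its values were seen. It had 232, 511 and 840 reads and was 3.62-fold higher (3.13 to 4.21) in activity than in dormancy.

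Most measured unigenes of a list of 21 other hemicellulose and side-chain enzymes, which holds the cellulose synthase-like unigenes, were higher in the active library. The list is a text match. Some of its names, such as O-fucosyltransferase family protein and UDP-glucuronosyltransferase, do not state a hemicellulose. Several unigenes share a best-hit name, so the counts below are of unigenes and not of distinct enzymes. From reactivation to activity, 9 of 17 passed 2-fold upwards and 1 downwards, and the median log2 ratio was 1.22, beside 6.76% and 5.14% over all unigenes and a median of -0.06. From dormancy to reactivation, 4 of 14 were higher and 3 lower, against 16.9% and 13.8%, with a median of 0.02 beside 0.07. From dormancy to activity, 11 of 16 were higher and 1 lower, against 18.1% and 13.8%, with a median of 1.48 beside 0.01. The unigene with most reads, an alpha-1,2-fucosyltransferase (Unigene59393) of the kind that adds fucose to xyloglucan, had 343, 720 and 780 reads. A beta-1,3-glucuronosyltransferase (Unigene58732), with a best hit from spruce, had 349, 328 and 870 reads and was 2.66-fold higher (2.34 to 3.02) in activity than at reactivation. Unigene56480 and Unigene7142 carry the same name and were chosen after their values were seen. They had 225, 256 and 713 reads and 149, 162 and 405 reads. In the same comparison they were 2.79-fold (2.41 to 3.23) and 2.50-fold (2.08 to 3.02) higher.

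The cellulose synthase-like A unigenes were chosen after their values were seen, because this family makes the backbone of mannan and glucomannan in other plants and the text match did not find it. Unigene58288, a cellulose synthase-like A2 by its pine hit, had 174, 163 and 1095 reads and was 6.73-fold higher (5.70 to 7.98) in activity than at reactivation. Unigene38753, a cellulose synthase-like A1, had 81, 37 and 359 reads and was 9.71-fold higher (6.91 to 14.0). Unigene54760, with the same A1 hit, had 16, 38 and 157 reads. A galactomannan galactosyltransferase (Unigene47114), chosen in the same way and named for an enzyme that adds galactose to mannan in legumes, had 112, 8 and 483 reads. It was 60.4-fold higher (30.4 to 141) in activity than at reactivation, and 14.0-fold lower (6.87 to 33.2) at reactivation than in dormancy. Its low point thus fell in the same library as that of Unigene45159, but its highest level was in activity and not in dormancy.

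**Figure D4:**
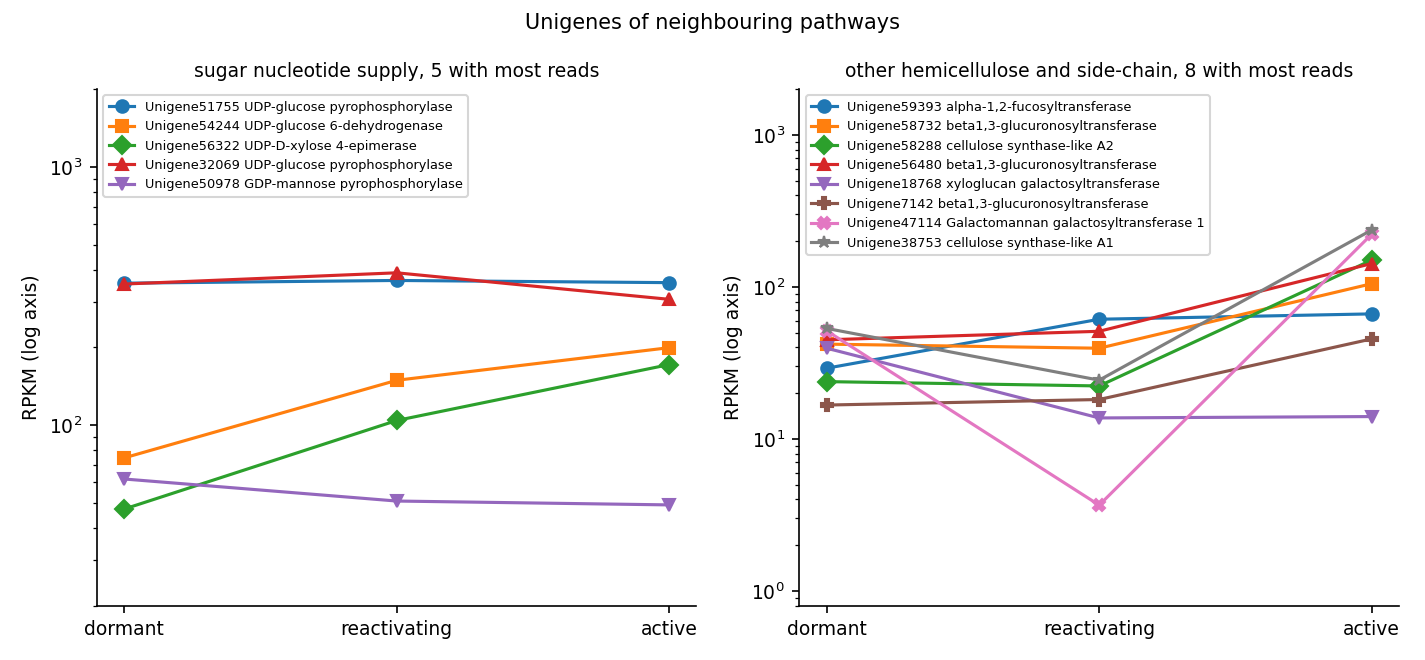
RPKM (y axis, logarithmic) by stage (x axis) for the 5 sugar nucleotide unigenes and the 8 other hemicellulose and side-chain unigenes with most reads; each point is 1 library. The 2 cellulose synthase-like A unigenes and the galactomannan galactosyltransferase are highest in the active library, and the UDP-glucose pyrophosphorylases are nearly level.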

How the data were processed

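Per the file headers, each deposited table lists for 1 library the unigenes with a read, the count of uniquely mapped reads (whole, not normalised), the length, the percent of the length that reads cover, the RPKM, gene ontology terms and the best protein hit. The authors' RPKM equalled the reads over the length and the header total, in the usual RPKM scale, to a relative tolerance of 1e-06. The sources used here name no assembler or mapper and do not say how reads shared by close copies were treated. As no strand-specific step is described in the labels' protocols, reads of overlapping antisense transcripts cannot be separated. No sequences or genome were used.

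A unigene missing from a table was set to 0 reads. Each stage has a single library, so no test was run and no p-value computed. Ratios of the deposited RPKM carry 95% intervals from the Clopper-Pearson interval of the reads, and levels carry exact Poisson intervals. Both cover counting error only, since each stage has 1 library. They treat reads as independent, which PCR copies are not, so they may be too narrow even for counting error. A library at 0 was set to a floor of 3 reads, an RPKM of 0.513 for 1 kilobase. The fold then depends on this floor and carries no counting interval. Unigenes entered a comparison with a sum of 20 reads over its 2 libraries and were counted at 2-fold. The calculation was checked on simulated Poisson counts, with changes planted only in unigenes with many reads. The simulation held no spread between replicates and no planted change near 0 reads, so it cannot speak to either. The members, lists and tests were chosen with earlier results of these data known. Named are the 10 members, the next 3 by reads, the 2 unigenes with most reads of each further list and the 2 most alike to each of the 3 members with the largest range, and others are named as chosen after their values were seen or because they share a best hit with a member. Alternatives used edgeR 4.0.16 (TMM) and DESeq2 1.42.0 (size factors) in R 4.3.3 as scaling only, besides other minimums, folds and lengths. Python 3.11.15 with scipy 1.17.1 was used.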

Additional observations from a re-analysis of the deposited data

How the results depend on the processing

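Of 30 ratios of the 10 unigenes, 7 were past 2-fold, and 0 crossed 2-fold under edgeR TMM factors, DESeq2 size factors or 1 added read. The ratios nearest to the limit were 1.56 and 3.06, and the log2 shifts under TMM were only -0.073, 0.057 and -0.016. No crossing was therefore possible with changes of this size, and the outcome is no check of the counts. All 90 recomputed ratios lay inside the reported counting intervals, although the ratios of Unigene57863 and Unigene17199 between activity and reactivation, both close to 1, turned from 1.01-fold lower to 1.03-fold higher under TMM. At 4-fold, 1 unigene in place of 2 was higher at reactivation and 1 in activity than in dormancy. The shares of all unigenes at this limit were 6.77% and 7.83%. With the 6 unigenes of at least 500 bases, 0 were higher or lower in any comparison, because the 3 that differ are shorter. Over every matching unigene, 3 of 23 were higher and 5 (21.7%) lower at reactivation than in dormancy, against 16.9% and 13.8% of all unigenes. In activity, 6 of 23 (26.1%) were higher and 0 lower than at reactivation, against 6.76% and 5.14% of all unigenes. Relative to dormancy, 5 of 24 (20.8%) were higher and 4 (16.7%) lower in activity, against 18.1% and 13.8% of all unigenes. Ranked by summed RPKM, 7 of the 10 were the same unigenes.

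For all unigenes, counts higher and lower at reactivation against dormancy were 3129 and 2465 with a minimum of 100 reads, 2456 and 1728 at 4-fold, 3202 and 2254 with the interval wholly beyond 2-fold, and 2328 and 1865 at 500 bases or more, with 8324 lower without a minimum. At activity against reactivation they were 5539 and 3864 without a minimum, 1004 and 536 at 100 reads, 774 and 245 at 4-fold, 961 and 311 by the interval, and 901 and 431 at 500 bases. At activity against dormancy they were 3486 and 2583 at 100 reads, 2843 and 1637 at 4-fold, 3666 and 2306 by the interval, and 2600 and 1767 at 500 bases, with 10213 higher without a minimum. Where fewer unigenes enter or the limit is stricter, fewer are counted by construction. No paired analysis was possible because each stage has 1 library. Leaving out a replicate was likewise not possible. With 1 read at reactivation, the fold of Unigene45159 is known only to within its interval.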

Other observations

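Among the matching unigenes with fewer reads, a beta-mannosidase (Unigene23119), named for an enzyme that removes mannose from chains such as mannan fragments, had 9 reads at dormancy, 13 at reactivation and 43 in activity. It was the only 1 of the 20 matching unigenes with at least 50 reads whose active level was at least 2-fold above both others, a pattern met by 3.16% of all unigenes so measured. The single xylanase by name (Unigene5881) had 12, 17 and 11 reads, and a lysosomal alpha-mannosidase (Unigene882) had 8, 5 and 28. Unigene882 was 5.61-fold higher (2.14 to 18.6) in activity than at reactivation and 3.50-fold higher (1.56 to 8.9) than in dormancy. It thus did not stay within 2-fold as the mannosidase unigenes among the 10 did. Another beta-1,2-xylosyltransferase (Unigene48570) had 35, 41 and 61 reads and was 1.745-fold higher (1.13 to 2.72) in activity than in dormancy. These unigenes were named after their values were seen.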
